A study of Mus musculus with 79 samples.

Results

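A set of 9 interferon response genes was followed across the quadriceps arrays of the BXD mouse family (Irf7, Ifit1, Ifit2, Ifit3, Isg15, Rsad2, Usp18, Oasl2 and Bst2). They were taken by name, as the rows of the deposited matrix that carry these symbols. Each of the 9 genes was represented by 1 probeset, out of 22335 named genes and 35556 probesets in all. The study profiled quadriceps RNA of males of the BXD family, inbred strains whose founders are DBA/2J (D2) and C57BL/6J (B6), on a Harlan chow diet (CD) or a Harlan high fat diet (HFD). There were 42 strains with a CD array, of which 37 also had an HFD array, and both sets held the parents B6 and D2. HFD began at 8 weeks of age, and all animals were fasted overnight and taken at 29 weeks. Each array (Affymetrix Mouse Gene 1.0 ST) held RNA pooled from about 5 animals of 1 strain on 1 diet, so that a strain and its pool cannot be told apart on a diet, and the error terms below are spreads between strains. The sample titles assigned 18 CD and 17 HFD arrays to batch 1 and 24 CD and 20 HFD arrays to batch 2. They give a date for each batch and do not say which step it refers to.

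Values are in the units of the deposited table, a log-type score scaled to a mean of 8.0 with an SD of 2.0 on each array. Since the log base is not given in the sources used here, differences are given in these units and not as folds, and are tested only within a probeset. Levels of unlike probesets are set side by side only roughly, as high or low. The tissue label was checked with 8 muscle fibre markers (Ckm, Acta1 and others), and their mean was high, between 14.46 and 14.80 on every array. Strain BXD63 stood apart over the 1154 olfactory receptor probesets, which were looked at with the values known. Its HFD minus CD profile correlated with that of the other strains at r = -0.537, against 0.421 to 0.649 in the other 36 strains. The diet labels of BXD63 were kept as given and were not tested, so the direction of its diet differences is uncertain. Results below are therefore also given without BXD63 where that mattered.

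Interferons are secreted proteins that warn cells of viral infection. The type I interferons bind the receptor pair Ifnar1 and Ifnar2, which activates a complex of transcription factors that includes Irf9, and this complex switches on a shared set of target genes. Irf7 is both a target and an amplifier of the response, since it drives transcription of the interferons themselves. Ifit1, Ifit2 and Ifit3 are neighbouring genes whose products bind foreign RNA and one another, Rsad2 encodes viperin, which makes a chain-terminating nucleotide, and Oasl2 belongs to the family of oligoadenylate synthetases. Bst2 encodes tetherin, which holds budding virus at the cell surface. Isg15 is a ubiquitin-like modifier, and Usp18 is the protease that removes it and also restrains signalling at the receptor.

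The shared targets of this pathway carry the interferon-stimulated response element in their promoters, and these elements are shown as background. RefSeq promoters of build GRCm38.p6 were searched over the 250 bases before each gene's start for GAAANNGAAA on both strands, with overlapping matches counted separately. Promoters were on hand for 8 of the 9 genes, and 5 of the 8 held a match, where 2.98% of all 32851 promoters of the same length did. The windows below run 5′ to 3′ on the strand of the gene, with the matched letters in capitals. Those of Ifit1, Ifit3 and Rsad2 hold the motif on the opposite strand, and therefore read TTTCNNTTTC.
Ifit1, plus strand, chr19:34640785-34640814: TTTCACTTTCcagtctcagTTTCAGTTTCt
Ifit3, plus strand, chr19:34583363-34583392: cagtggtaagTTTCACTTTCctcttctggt
Ifit3, plus strand, chr19:34583397-34583426: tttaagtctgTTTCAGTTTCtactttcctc
Rsad2, minus strand, chr12:26456553-26456582: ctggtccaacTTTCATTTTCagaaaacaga
Isg15, minus strand, chr4:156200871-156200900: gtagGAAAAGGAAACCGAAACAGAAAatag
Bst2, minus strand, chr8:71537580-71537609: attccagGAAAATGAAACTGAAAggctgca
Isg15 held 3 overlapping matches and Bst2 held 2, while Ifit1 and Ifit3 held 2 matches each that did not overlap. The windows of Irf7, Ifit2 (with 2 starts in the table) and Oasl2 did not hold these letters, and no promoter of Usp18 was on hand.

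The identity of 1 probeset needs care before the values. Probesets of this array are numbered along the genome, and for 7 genes besides Rsad2 and Isg15 all 10 nearest numbered probesets with a known gene lay on the gene's own chromosome. For Rsad2 it was 9 of 10. For the probeset named Isg15 it was 1 of 10, and 9 of 10 lay on chromosome 17, whereas RefSeq places Isg15 on chromosome 4. The value given as Isg15 is thus that of a probeset which the file names Isg15 and whose target was not established. The Isg15 promoter window above is that of the chromosome 4 gene. Ifit2 and Isg15 were also below the median of all probeset means (7.86), and the other 7 were above it.

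The first comparison was between diets over all arrays (limma with diet and batch as terms, 42 CD and 37 HFD arrays, Benjamini-Hochberg adjusted p over all probesets). Irf7, Rsad2 and Usp18 were higher on HFD, the Isg15 probeset was lower, and Ifit1, Ifit2, Ifit3, Oasl2 and Bst2 did not pass the test. These 4 of 9 genes (44.4%) compare with 38.1% of all probesets, so the share of genes called was near that of the array as a whole. The median difference of the 9 genes was 0.12 units. Less RNA per cell and fewer cells of a type cannot be told apart in such bulk tissue.

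Irf7 ranged on CD from 7.485 (BXD44) over a median of 7.78 to 8.078 (BXD73), and on HFD from 7.516 (BXD99) over 7.98 to 8.279 (BXD45). The ranges overlapped, and 28 of 37 strains were higher on HFD. The rise of Irf7 was 0.17 units (SE 0.0354, limma adjusted p = 8.2e-05). The 3 lowest HFD values belonged to strains that were not higher on HFD, among them BXD63, which by its labels fell by 0.21.

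Rsad2 had the largest diet difference of the 9 genes, and the largest SD between strains (0.40 on CD and 0.42 on HFD), although the full range of Ifit3 was wider in both diets. On CD it ranged from 7.192 (BXD55) over a median of 7.76 to 8.719 (BXD98), and on HFD from 7.485 (BXD63) over 8.26 to 9.041 (BXD62). Rsad2 rose by 0.33 units (SE 0.0918), with a limma adjusted p of 0.00249, and 29 of 37 strains had the higher value on HFD. By strain, 12 rose by 0.5 units or more and none fell by as much. With 1 pool per strain and diet, unequal rises cannot be told apart from the spread between pools. The difference was largest in BXD83 (7.619 on CD and 8.612 on HFD), BXD85 (7.212 and 8.157) and BXD69. The strain with the highest CD value, BXD98, stood at 8.719 and 8.634.

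Usp18 lay between 8.042 (BXD84) and 8.937 (BXD80) on CD with a median of 8.53, and between 8.245 (BXD44) and 8.986 (BXD49) on HFD with a median of 8.68. Its rise was 0.14 units (SE 0.043, limma adjusted p = 0.00546), with 25 of 37 strains higher on HFD. No strain moved by 0.5 units in either direction.

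The Isg15 probeset went the other way. Its CD values lay between 6.762 (BXD103) and 7.340 (BXD68) with a median of 7.13, and its HFD values between 6.633 (BXD79) and 7.281 (BXD56) with a median of 6.94. It fell by 0.18 units (SE 0.0329), with a limma adjusted p of 7.24e-06, and 8 of 37 strains were higher on HFD. BXD103 ran against this, from the lowest CD value to 7.274 on HFD, and so did BXD56, from 6.958 to 7.281.

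Of the 5 genes that did not pass, Ifit3, Oasl2, Ifit2 and Ifit1 had differences of 0.13, 0.12, 0.10 and 0.06 units, and 21 to 25 of 37 strains were higher on HFD. Ifit3 spanned 7.849 to 9.754 on CD and 7.796 to 9.445 on HFD. Oasl2 spanned 8.069 to 9.146 and 8.245 to 9.278, Ifit1 spanned 7.508 to 8.523 and 7.536 to 8.733, and Ifit2 spanned 6.417 to 7.617 and 6.669 to 7.699. Bst2 differed by 0.01 units (95% interval -0.05 to 0.07), with values of 8.726 to 9.264 on CD and 8.700 to 9.424 on HFD.

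**Figure D1:**
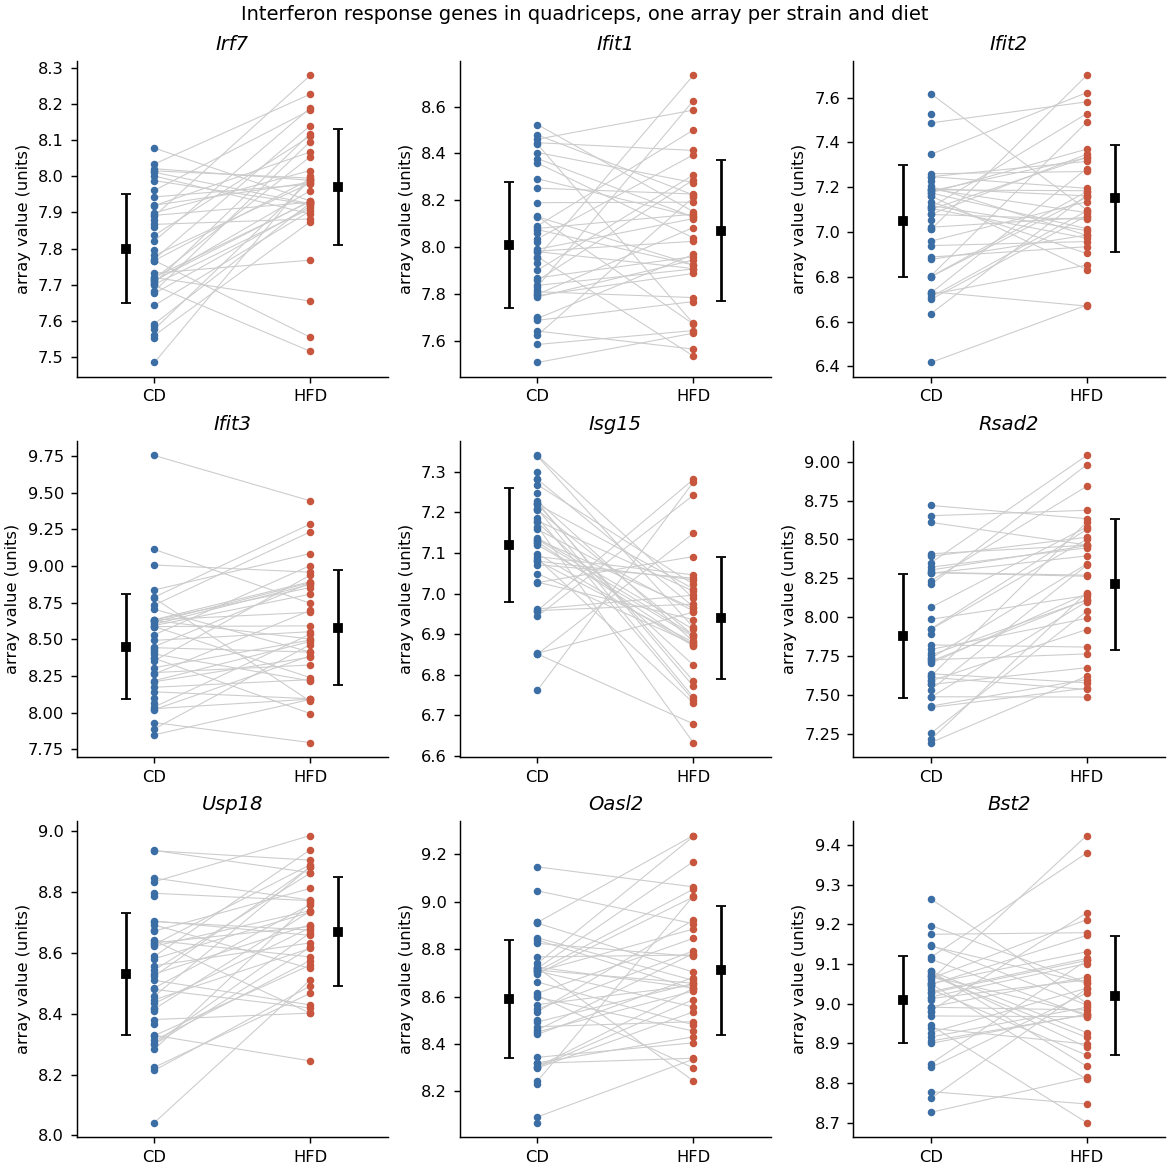
Array value (units of the deposited score) of each gene on CD and HFD, 1 point per strain and diet (42 CD, 37 HFD), with grey lines joining the arrays of a strain and black squares giving mean and SD. Every pair of ranges overlaps. Most lines climb in every gene but Isg15, from 29 of 37 in Rsad2 to 20 of 37 in Bst2, and most descend in Isg15.

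With strain as a block over the 37 paired strains, Ifit2 also passed (0.11 units, limma adjusted p = 0.0354), which gave 5 of 9 genes, where 40.6% of all probesets passed. Within batch 1 alone the Isg15 probeset was the single gene called (-0.18 units, limma adjusted p = 0.00746), where 12.6% of all probesets were. Within batch 2 Irf7, Isg15 and Rsad2 were called, where 24.4% of all probesets were. The differences in batches 1 and 2 were 0.33 units in each for Rsad2, 0.15 and 0.18 for Irf7, and 0.14 and 0.15 for Usp18, while that of Ifit2 was 0.14 and 0.07.

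The remaining pathway was read from lists of ligands, receptors and signalling proteins, sensors and targets, and 38 of its 86 genes on the array (44.2%) were called between diets, 32 higher and 6 lower on HFD. Over all probesets 38.1% were called, 18.9% higher and 19.3% lower, so the total was near that of the array. The target genes of type I interferon other than the 9 above had 19 higher and 2 lower of 35 (median difference 0.12 units). Ifit3b, a close copy of Ifit3 that the file lists as I830012O16Rik, led with 0.38 units, from 5.63 ± 0.37 (SD, n = 42) on CD to 6.02 ± 0.44 (SD, n = 37) on HFD. The array signal of Ifit3 and Ifit3b may be shared, which was not tested. The antiviral GTPase gene Mx1 (0.34 units) and Ifi44 (0.34 units) followed, while the synthetase gene Oas3 (-0.20 units) and the helicase gene Ddx60 (-0.13 units) were lower. Ifit3b, Mx1, Oas3 and Ddx60 lay below the median of all probeset means (7.86). With probesets below that median left out, 21 of 56 pathway genes were called higher and 1 lower, where 29.8% of all probesets tested were called.

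Upstream of these targets, 5 of 11 receptor and signalling genes (45.5%) were higher on HFD and none was lower. The receptor chain Ifnar2 rose by 0.27 units and Ifnar1 by 0.12, and Irf9, the DNA-binding part of the factor complex, by 0.24. Among the sensors of foreign nucleic acid 4 of 13 (30.8%) were higher and none was lower, led by the transcription factor Irf3 (0.21 units), the RNA sensor Ddx58 (0.13) and the adaptor Tmem173 (0.12). The ligands had 2 higher (Ifnb1 at 0.19 and Ifna6 at 0.10 units) and 3 lower (Ifna4 at -0.25, Ifna13 at -0.21 and Ifna5 at -0.18) of 15 (33.3% called), with a median of -0.04. The GTPases induced by interferon gamma had 2 higher (Gbp2 at 0.26 and Gbp6 at 0.25) and 1 lower (Gbp3 at -0.17) of 12. The other type I targets, with 21 of 35 called, were farthest above the 38.1% of all probesets called. The receptor and signalling genes were slightly above that share, and the sensors, ligands and GTPases were below it. These 4 lists hold 11 to 15 genes each, so their distances from 38.1% rest on few genes and are not read as a pattern. No list's share was tested against that of the array. Each named gene passed the same limma test.

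**Figure D2:**
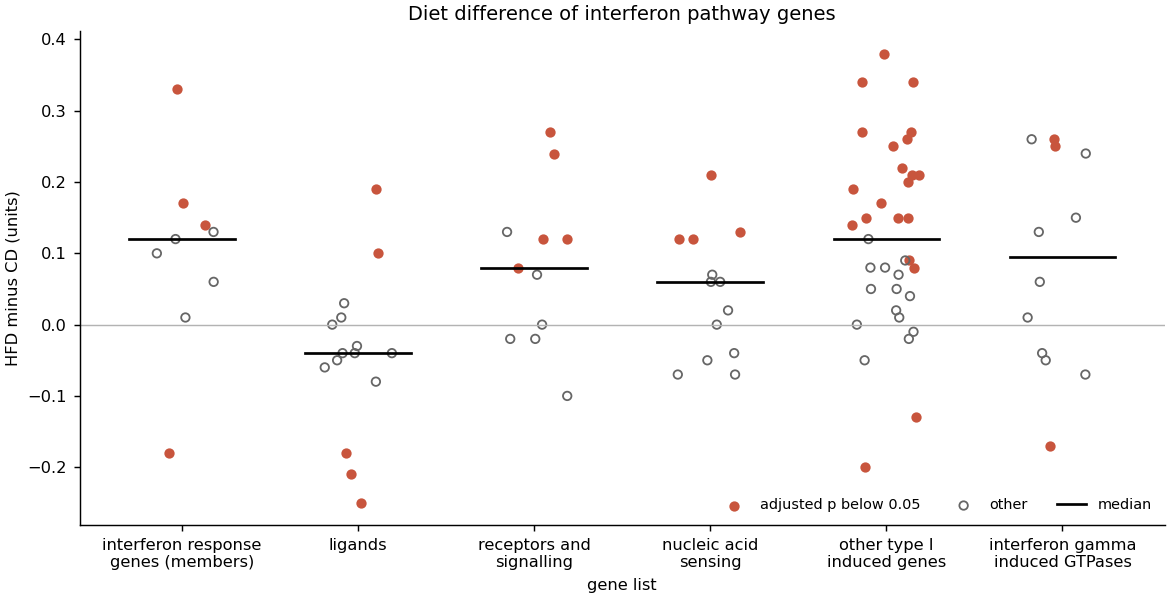
HFD minus CD difference (units of the deposited score) of each gene in the 9-gene group and in 5 pathway lists, 1 point per gene, filled where the limma adjusted p is below 0.05, with list medians as bars. Medians run from -0.04 in the ligands to 0.12 in the 9 genes and in the other type I targets.

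Markers of other cell types were read beside these, again with 18.9% of all probesets called higher and 19.3% lower. Of 10 macrophage markers 7 were higher on HFD and none was lower, with list means of 8.24 to 8.98 on CD and 8.40 to 9.25 on HFD. Of 8 adipocyte markers 6 were higher and 1 lower, with list means of 9.37 to 10.96 and 9.51 to 11.38, and of 8 endothelial markers 4 were higher, with list means of 9.50 to 10.28 and 9.85 to 10.42. Of 7 plasmacytoid dendritic cell markers, a cell type known for making interferon, none was higher and Ly6d was lower, but the list holds Cox6a2, which muscle itself makes (13.95 on CD), so its mean does not report that cell type in this tissue. The T cell markers had 1 higher and 3 lower of 8, the B cell markers none higher and 3 lower of 6, the neutrophil markers 1 higher and 2 lower of 6, and the red blood cell markers 1 higher of 5. Across the 37 strains the diet difference of the 9 genes (their mean) correlated with that of the endothelial markers at r = 0.51, of the macrophage markers at 0.22 and of the adipocyte markers at -0.10. The red blood cell list had 0.14 and the B cell list -0.09. The neutrophil, muscle fibre, T cell and plasmacytoid dendritic cell lists had -0.24, -0.22, -0.19 and -0.18, so the macrophage value was no larger in size than these. The part of these cells in the diet differences was not tested.

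Most of the genes rose and fell together from strain to strain. For each pair of the 9 genes, Pearson r was taken across strains within a diet after removing batch means. The median over the 36 pairs was 0.36 on CD, with 10 pairs at 0.5 or more, and 0.41 on HFD, with 15 such pairs. Among all pairs of named genes 1.21% reached 0.5 on CD and 3.15% on HFD. On CD 6 pairs passed an adjusted p below 0.05 over the 201006 relations of the 9 genes with any gene (0.688% of relations passed), and on HFD 16 pairs did (5.95% of relations), all with positive r. Of these, 5 pairs passed in both diets.

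On HFD the highest r were those among Ifit1, Ifit3 and Oasl2. Ifit1 and Oasl2 correlated at r = 0.70 on CD (rho 0.74, adjusted p = 0.00151) and 0.74 on HFD (rho 0.78, adjusted p = 0.000813), each with a permutation p of 1e-05, the smallest that 100000 draws allow. Without the 2 strains farthest from the median of Ifit1, r was 0.68 and 0.81. Within batches 1 and 2, r was 0.52 and 0.78 on CD and 0.79 and 0.69 on HFD. Ifit1 and its neighbour Ifit3 correlated at 0.66 on CD and 0.74 on HFD. Ifit3 with Oasl2 stood at 0.52 on CD, where it did not pass (adjusted p of r 0.0532), and at 0.76 on HFD. Usp18 tracked Oasl2 at 0.66 on CD and 0.55 on HFD, though on CD this was 0.31 in batch 1 and 0.79 in batch 2. Ifit2, which lies beside Ifit1 and Ifit3, correlated with Ifit1 at 0.52 on CD and 0.67 on HFD, and with Ifit3 at 0.27 and 0.39.

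Isg15 and Bst2 stood apart from the other 7 genes. The Isg15 probeset correlated with the mean of the other 8 genes at r = -0.13 on CD and -0.19 on HFD, and Bst2 at 0.13 and 0.17, where each of the other 7 genes had 0.44 or more in both diets. Matches to the promoter motif did not follow this split. Isg15 and Bst2 held matches, as did Ifit1, Ifit3 and Rsad2 (r = 0.70, 0.62 and 0.54 on CD). Irf7, Ifit2 and Oasl2 held none and had 0.52, 0.44 and 0.72 on CD. Leaving out Isg15 and Bst2, a choice made after their values were seen, the remaining 21 pairs had a median of 0.49 on CD and 0.55 on HFD, with a lowest r of 0.24. Without BXD63 the lowest were Irf7 with Rsad2 (0.13) and Irf7 with Ifit2 (0.19), both on HFD. Within batch 1 on CD the pairs of Ifit2 were lower, at -0.13 with Usp18, 0.08 with Irf7, 0.14 with Oasl2 and 0.18 with Ifit3, where batch 2 had 0.61, 0.49, 0.83 and 0.44. Isg15 and Bst2 correlated with each other at 0.35 on CD (adjusted p = 0.258) and 0.57 on HFD (rho 0.48, permutation p = 0.00023, adjusted p = 0.0141). On HFD this was 0.47 in batch 1, 0.62 in batch 2 and 0.42 without the 2 strains farthest from the median of Isg15.

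**Figure D3:**
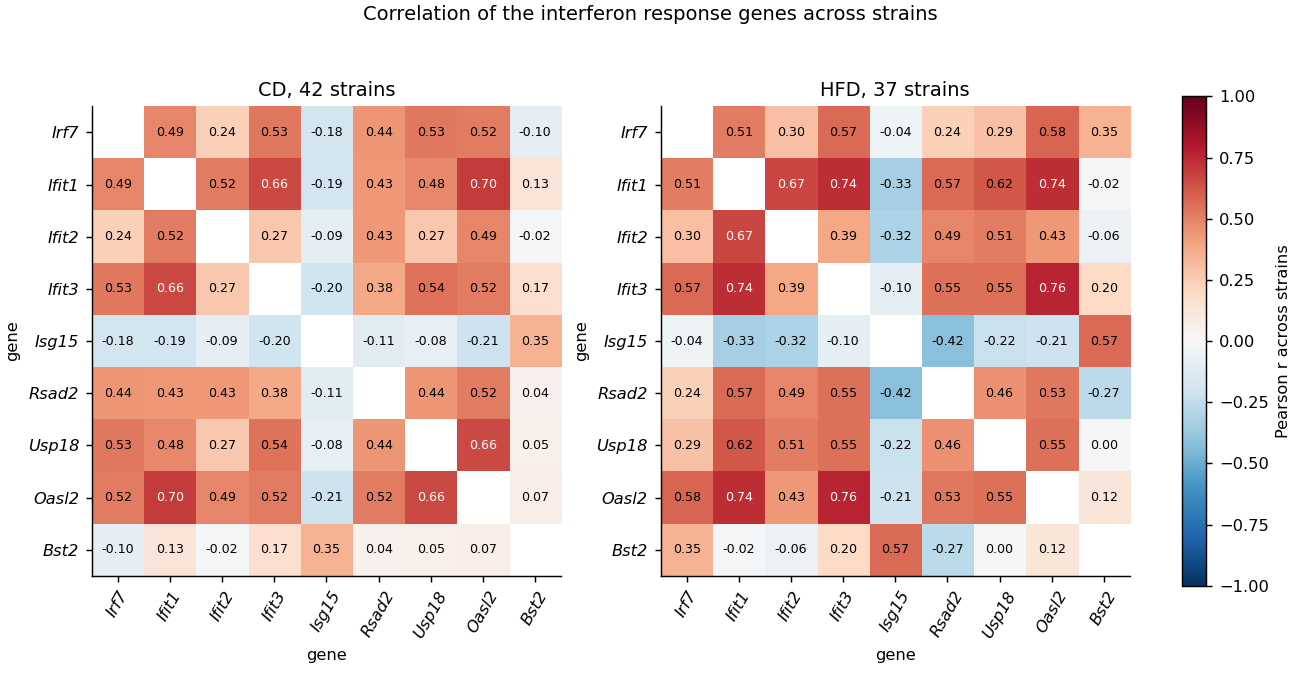
Pearson r across strains for every pair of the 9 genes on CD (42 strains) and HFD (37 strains), batch means removed, red for positive and blue for negative. The rows of Isg15 and Bst2 are pale or blue against the other 7 genes, whose 21 pairs run from 0.24 to 0.76 over all strains.

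The next question was whether a strain kept its level from one diet to the other, which compares pools of different animals of the same strain. Rsad2 (r = 0.706), Ifit3 (0.681), Usp18 (0.526) and Oasl2 (0.459) passed an adjusted p below 0.05 over all probesets, and 10.5% of all probesets did so with a positive r. The median r was 0.41 over the 9 genes and 0.14 over all probesets.

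For Rsad2, rho was 0.723, the permutation p was 1e-05 and the adjusted p was 5.57e-05. Among the 12 strains whose arrays were both of batch 1 its r was 0.734, and among the 17 of batch 2 it was 0.779. Leaving out BXD98 and BXD68, the farthest out on CD, gave 0.684. For Ifit3, rho was 0.636, the permutation p was 1e-05 and the adjusted p was 0.000159, with r of 0.580 and 0.768 within batches 1 and 2. Its r fell to 0.588 without BXD80 and BXD48, the strains farthest out.

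Usp18 (rho 0.488, permutation p = 0.00083, adjusted p = 0.0125) had an r of 0.362 and 0.591 within batches, and 0.476 without its 2 farthest strains, where its adjusted p was 0.0516. Oasl2 (rho 0.445, permutation p = 0.00411, adjusted p = 0.0432) had 0.215 and 0.519 within batches, and lost its call by rank (adjusted p of rho 0.0568), without its 2 farthest strains (0.359) and without BXD63 (r = 0.438, adjusted p = 0.0649). Rsad2 and Ifit3 passed in each of these 3 settings, and Usp18 passed by rank and without BXD63 (adjusted p = 0.013).

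The other genes did not pass. Ifit2 had r = 0.410 (adjusted p = 0.0862), Ifit1 0.371 (adjusted p = 0.138), Bst2 0.298 and Irf7 0.255. Ifit1 differed most between batches, at -0.042 in batch 1 and 0.679 in batch 2. The Isg15 probeset had a negative r of -0.407 (rho -0.322, permutation p = 0.0127, adjusted p = 0.0903), which lay at percentile 0.2 of all probesets. BXD103 and BXD56 were low for it on CD and high on HFD, as were BXD84 and BXD87, while BXD98 was low on both diets (6.851 and 6.679) and BXD85 went from 6.853 to 6.954, near the HFD median. This was seen at -0.638 in batch 1 and -0.297 in batch 2, and at -0.453 without BXD103 and BXD98.

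**Figure D4:**
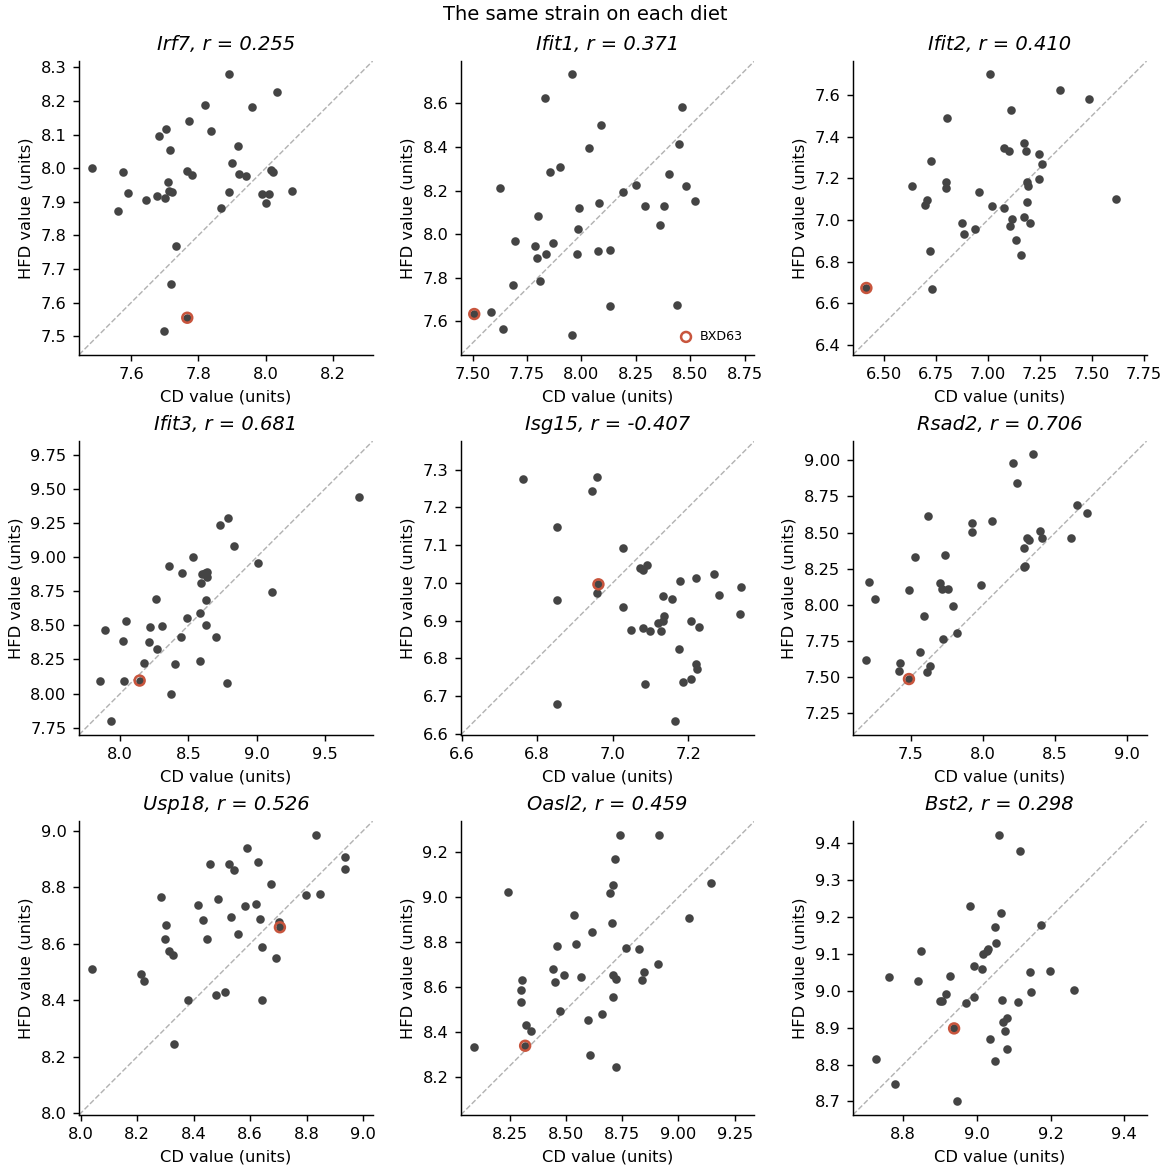
CD value (x) against HFD value (y) of the 37 strains with both arrays, in units of the deposited score, with the line of equal values dashed and BXD63 ringed; r in each title was taken after removing batch means. Points follow the line's slope in Rsad2 and Ifit3 and run downward in Isg15 (r = -0.407).

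To rank strains, the 9 genes were standardised within each diet and averaged. No strain lay more than 3 scaled median absolute deviations from the median in either diet, so none was outlying for the group as a whole. On CD the highest means were those of BXD80 (1.32 SD units), BXD49 (1.10) and BXD56 (0.93), and the lowest those of BXD71 (-1.18), BXD48 (-1.14) and BXD63 (-0.94). On HFD BXD45 (1.21), BXD56 (0.99) and BXD62 (0.73) were highest, and BXD63 (-1.20), BXD44 (-1.01) and BXD89 (-0.92) lowest. The mean correlated between diets at r = 0.594 (rho 0.587), at 0.56 without BXD63, and at 0.59 and 0.62 within batches 1 and 2. Without the Isg15 probeset it was 0.56 and 0.72 within batches, and without Isg15 and Bst2 0.44 and 0.77. Among the 9 highest strains in each diet 5 were shared, namely BXD45, BXD49, BXD56, BXD62 and BXD80. Among the 9 lowest 4 were shared, namely BXD44, BXD48, BXD63 and BXD100, and no strain went from one end to the other.

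BXD45 had all 9 genes above the HFD median and 7 above the CD median, and BXD97 all 9 above the CD median. BXD71 had none of the 9 above the CD median. With 1 pool per strain and diet the error of a strain's own mean was not measured, so the order of close neighbours is not settled. By the same measure, 5 sets of single-gene values held outlying strains. Ifit3 in BXD80 was 9.754 on CD, where the next strain had 9.113, and the same strain was highest on HFD with 9.445 (next 9.286). Ifit2 in BXD63 was 6.417 on CD, where the next lowest strain had 6.635. On HFD, Irf7 had 4 outlying strains (BXD45 high, and BXD63, BXD66 and BXD99 low) and Isg15 had 2 (BXD56 and BXD103, both high). On CD, Bst2 had 4 (BXD81 high, and BXD71, BXD73 and BXD96 low).

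The diet difference varied in size and sign between strain pools. With 1 pool per strain and diet, strain responses cannot be told apart from the spread between pools. The 9 genes also covary and do not count as 9 separate observations. In 19 of 37 strains at least 7 of the 9 genes were higher on HFD, and in 10 strains 3 or fewer were. The median difference over the 9 genes ran from -0.17 units in BXD99 to 0.37 in BXD70. BXD85 was the strain in which all 9 genes were higher, from 0.05 units for Usp18 to 0.95 for Rsad2. BXD63, by its labels, had 4 of 9 higher and a median of 0.00.

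The parents went different ways, with 8 of 9 genes higher on HFD in B6 (median 0.15 units) and 2 of 9 in D2 (median -0.05), on 1 array per parent and diet and with no test of that difference. Rsad2 was 7.925 on CD and 8.565 on HFD in B6, and 7.612 and 7.534 in D2. Ifit3 was 8.618 and 8.886 in B6, and 8.780 and 8.078 in D2.

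Between the parents over both diets none of the 9 genes was called (limma with 1 coefficient per strain, adjusted p over all probesets), where 1.26% of probesets were. Rsad2 was the single gene with an unadjusted p below 0.05 (B6 minus D2 0.67 units, SE 0.217, limma p = 0.00362, adjusted p = 0.154), and 8.31% of all probesets had such a p. The spread came from the paired strains, and the parents were assumed to vary like them.

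The strains' diet differences were also compared between genes. Over the 21 pairs without Isg15 and Bst2, r between these differences had a median of 0.39 (0.08 to 0.68), with Ifit1 and Ifit3 highest, and over all 36 pairs 0.26 (-0.43 to 0.68). Isg15 and Bst2 again paired with each other at 0.67, and Isg15 with Rsad2 stood at -0.43. These differences hold the same arrays as the comparison within each diet and add no separate evidence.

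**Figure D5:**
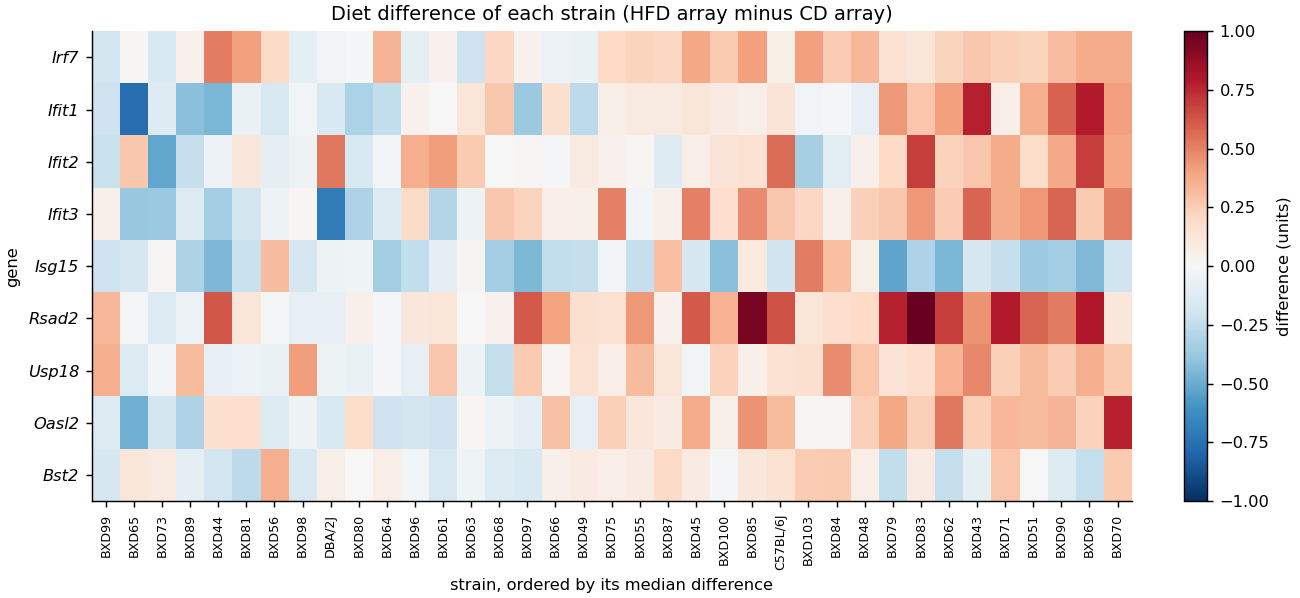
HFD array minus CD array (units, colour) for each gene (rows) in each of the 37 paired strains (columns), ordered by the strain's median from -0.17 in BXD99 to 0.37 in BXD70. The row of Rsad2 is red on the right, the row of Isg15 is mostly blue throughout, and D2 and B6 sit apart in the order.

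The genes most like the group were sought among the 22326 others, by r with the mean of the 9 genes on CD. The first 10 were Ifi44 (r = 0.79), Rtp4 (0.71), Trim30a (0.70), Ifih1 (0.70), Sp100 (0.70), Cdk6 (0.69), Herc6 (0.68), Oas2 (0.67), H2-D1 (0.67) and 9930111J21Rik2 (0.66). On HFD, which the choice did not use, Ifi44 was again first of all genes at 0.83, Rtp4 had 0.76, Herc6 0.75, Sp100 0.73 and Oas2 0.70. Cdk6, a kinase of the cell cycle, had 0.01 and rank 9502 on HFD. Ifi44 held within batches, at 0.68 and 0.86 on CD and 0.88 and 0.75 on HFD, whereas Oas2 had 0.15 and 0.84 on CD.

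By list, 13 of 35 other type I targets had r of 0.5 or more with the mean of the 9 genes on CD and 14 on HFD, where 0.264% and 0.246% of all other genes did. Of the GTPases induced by interferon gamma 9 of 12 did on CD and 8 on HFD, with Ifi47 highest on CD (0.59) and Tgtp1 on HFD (0.70). Of the receptor and signalling genes 3 of 11 did in each diet, led by Irf9 at 0.60 and 0.70. Of the nucleic acid sensors 2 of 13 did in each diet, led by Ifih1 at 0.70 and 0.63. None of the 15 ligands did, their medians being -0.11 and -0.10. Among marker lists the mean of the 9 genes correlated with the endothelial list at 0.41 on CD (rho 0.54) and 0.16 on HFD (rho 0.07), with the macrophage list at 0.21 in each, with the adipocyte list at 0.23 and 0.05, with the muscle fibre list at -0.24 and -0.10, and with the plasmacytoid dendritic cell list, which holds Cox6a2, at -0.23 and -0.31. These are descriptions across strains, whose arrays share scaling and batches.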

How the data were processed

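Quadriceps RNA of 79 strain pools (42 CD, 37 HFD) had been hybridised to Affymetrix Mouse Gene 1.0 ST arrays. The values deposited by the authors were 1 score per probeset and array, of log type and with an equal mean and SD on every array. The submitters' processing notes name Affymetrix Expression Console, and the log base, summarization and any batch correction are not given in the sources used here. No batch term reached an unadjusted p below 0.266 in any probeset, so the batches appear to have been centred before deposit. Arrays carry no counting depth, and their number limits the precision. Tests chosen with log2 values in mind were applied to the scores as deposited.

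Gene symbols were those of the file, except that Ifit3b and Adgre1 stand under older symbols there, and the probeset with the highest mean stood for a gene. Diet was fitted with limma (version 3.58.1, R 4.3.3) on diet and batch, with Benjamini-Hochberg adjustment over 35556 probesets. Correlations were two-sided and used 100000 permutations (numpy 2.4.6, scipy 1.17.1), and adjusted p-values of r came from its t distribution. The 37 strains with both diets pair the arrays by the strain in the labels, and the deviations of a strain's arrays correlated at a median of 0.214 over probesets (-0.136 to 0.395). The genes named were the 9 members, the 3 called genes that moved farthest each way in a pathway list, the 10 genes most like the member mean, and the outlying and extreme strains. Ifi47, Tgtp1, Iigp1, Irgm2, Ly6d and Cox6a2 fall outside this rule and were named after their values were seen. The members and lists were chosen with earlier results of these data known. Scripts were tested on simulated data. Of the listed pathway genes, 5 were not found under their symbols. P-values measure the spread between pools.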

Additional observations from a re-analysis of the deposited data

How the results depend on the processing

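Of 9 genes, 4 were called between diets, and 3 to 5 were under the other settings tried (no batch term, batch 2, paired strains with and without the strain as replicate block, the methods' t-test, other scalings, without dim probesets, without BXD63, all probesets averaged) except in batch 1 alone, which called 1. Without dim probesets 7 of the 9 genes were tested, and 3 were called. Over the paired strains the replicate block gave 5 of 9 and 42 of 86 other pathway genes, against 4 and 35 without it (38 over all arrays), and changed no other call of the 9 than that of Ifit2. Those 38 became 12 of 86 in batch 1, 22 of 86 in batch 2 and 22 of 56 without dim probesets, where 12.6%, 24.4% and 29.8% of all probesets tested were called, against 38.1%. The 4 genes with a cross-diet r past the threshold fell to 0 in the 12 strains of batch 1 (4 had an unadjusted p below 0.05), to 2 in the 17 strains of batch 2 and to 2 without the 2 farthest strains. The pairs at r of 0.5 or more lay between 7 and 15 on CD and between 12 and 16 on HFD, and none of the 9 genes was called between the parents under any of 5 alternatives, in each of which 1 had an unadjusted p below 0.05. Signs turned where no call stood, as for Bst2 (-0.002 units after renewed quantile normalization), and for the cross-diet r of Ifit1 (-0.042 in batch 1) and of Ifit2 (-0.056 in 8 strains whose diets fell into separate batches). The cause was not tested. With 1 pooled array per strain and diet, strain and pool cannot be told apart.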

Other observations

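Among the 12 GTPases induced by interferon gamma the SD between CD strains ran from 0.23 (Ifi47) to 0.70 (Iigp1). The pair with the largest SD, Iigp1 and Irgm2, was singled out after the values were seen. Iigp1 had 8.24 ± 0.70 (SD, n = 42) on CD and 8.49 ± 0.71 (SD, n = 37) on HFD, and Irgm2 had 8.41 ± 0.68 on CD and 8.65 ± 0.56 on HFD. Their diet differences of 0.26 and 0.24 units did not pass (limma adjusted p = 0.191 and 0.164), although Irgm2 was higher on HFD in 29 of 37 strains. Both correlated with the mean of the 9 genes, Iigp1 at 0.51 on CD and 0.60 on HFD and Irgm2 at 0.45 and 0.44.

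Mx1 and Oas3 were called between diets in opposite directions, and their r with the mean of the 9 genes was 0.04 and -0.27 on CD and 0.36 and 0.02 on HFD. Ifit3b had r = 0.29 with the mean of the 9 genes on CD and 0.70 on HFD. Cdk6, which had been picked for its r of 0.69 on CD, had r of 0.55 and 0.77 within the CD batches and -0.24 and 0.22 within the HFD batches, and the difference between diets was not tested.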
